A study of Mus musculus with 6 samples.

Results

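The genes described here are 8 regulators that are known from the pluripotent cells of the early embryo and from germ cells: Pou5f1, Nanog, Lin28a, Lin28b, Sall4, Dnmt3b, Utf1 and Dppa3. They were chosen by name. Every probe set that the platform annotation ties to 1 of them and to no other gene was taken, which gave 13 of 45037 mouse probe sets and 8 of 18193 named genes. RNA came from whole embryos of embryonic day 8.5, 3 wild-type embryos and 3 littermates heterozygous for Tcof1 (Tcof1+/-), each on its own Affymetrix Mouse Genome 430 2.0 array. Tcof1 encodes treacle, a nucleolar protein of ribosomal RNA synthesis, and carriers of a defective human copy have Treacher Collins syndrome. The allele is carried in every cell of the embryo. The strain, the number of somites, the number of litters and whether yolk sac was removed are not stated in the labels.

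In the blastocyst and early epiblast, Oct4 (the protein of Pou5f1), Nanog and Sox2 hold cells in a state from which all tissues can form, and this state is dismantled as the germ layers differentiate. By early somite stages Oct4 is known to remain in the caudal part of the embryo for a short time and then only in primordial germ cells, where Nanog and Dppa3 are expressed as well. Lin28a, Sall4 and Dnmt3b are known to be used more broadly and to remain on in dividing tissue of the neural tube, mesoderm and limb after the core factors have gone. All embryos here were of 1 age, so a decline with time could not be observed, and the values give a level at this age and its spread between embryos.

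The signals were linear, in arbitrary units, with the same trimmed mean of 150 on every array. As a gauge of background, the highest of 27 probe sets for unspiked bacterial controls gave 8.55 to 13.5 per array, and 52.0% of all mouse probe sets lay above that value on every array. This bar was 13.5, 12.9 and 11.36 in wild types and 10.7, 8.55 and 11.27 in heterozygotes, without overlap. Counts of arrays above it therefore do not compare the genotypes. Signals of different probe sets depend on their oligonucleotides, so the levels of different genes were not ranked. Tcof1 was at 382 to 393 in wild types and 179 to 231 in heterozygotes (log2 difference -0.88, SE 0.12, limma adjusted p = 0.0352). Of the 27023 probe sets bright enough to be tested, 22 passed a limma adjusted p of 0.05, which is 0.0814%.

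The 13 probe sets fell into bright and dim ones, and the genotypes overlapped on every one of them. Lin28a, Sall4 and Dnmt3b gave strong signals in all 6 embryos. Pou5f1, Dppa3 and the brightest Utf1 probe set lay little above the bacterial controls, Lin28b lay around them and Nanog below. In all, 8 probe sets exceeded the highest bacterial control on all 6 arrays, 3 did so on some arrays and 2 on none. No member probe set was called different between genotypes in limma, against 0.0814% of all tested probe sets, and 0 had an unadjusted p under 0.05, against 6.22%.

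**Figure D1:**
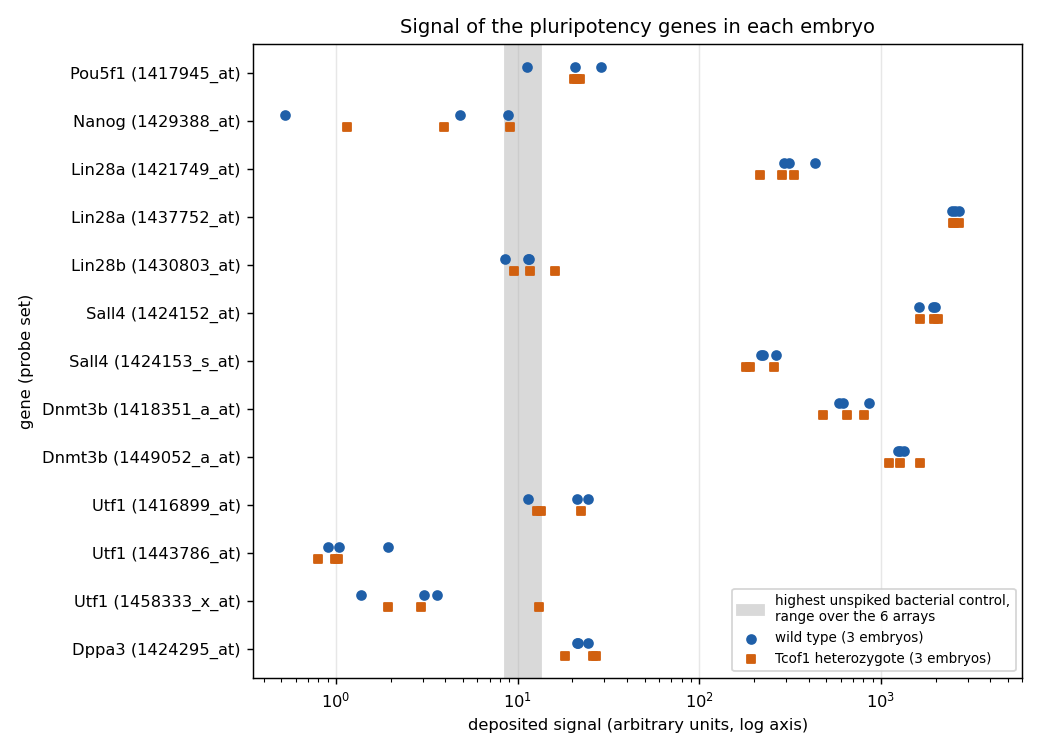
Deposited signal (log axis, arbitrary units) of each of the 13 probe sets in each embryo, circles for wild type and squares for Tcof1 heterozygotes, with the grey band marking the highest bacterial control, 8.55 to 13.5 over the arrays. Lin28a, Sall4 and Dnmt3b sit far to the right of the band, Pou5f1, Dppa3 and Utf1 1416899_at in it or just above, and Nanog and the other Utf1 probe sets mostly to its left, with circles and squares overlapping in every row.

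RefSeq promoter sequence (GRCm38.p6) was matched for 6 of the 8 genes and is shown for a dim, a near-background and a bright member, as the 100 bases before the annotated start, 5′ to 3′ on the gene's strand. Capitals mark the letters of 3 motifs, searched on both strands: the octamer core bound by POU factors such as Oct4 (TTTGCAT), a SOX core (ACAATG) and the GC box of Sp factors (GGGCGG). The stretches are chr6:122707389-122707488 for Nanog, chr17:35505932-35506031 for Pou5f1 and chr2:153649349-153649448 for Dnmt3b, all on the plus strand.
Nanog: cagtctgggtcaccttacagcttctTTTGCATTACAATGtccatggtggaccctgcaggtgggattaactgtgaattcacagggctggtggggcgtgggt
Pou5f1: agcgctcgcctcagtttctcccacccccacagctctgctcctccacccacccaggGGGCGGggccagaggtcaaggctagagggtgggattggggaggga
Dnmt3b: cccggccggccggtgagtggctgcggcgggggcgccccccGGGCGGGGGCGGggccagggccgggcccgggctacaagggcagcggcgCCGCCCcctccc

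The Nanog stretch held the octamer core and the SOX core 1 base apart, from 75 to 62 bases before the start. The joined letters TTTGCATTACAATG, which were taken from this stretch and overlap both cores, were found in 1 of 32851 windows of the same length, that of Nanog, whereas the octamer core alone was in 1.49%, the SOX core alone in 4.27% and the GC box in 24.7%. Pou5f1 held 1 GC box, 45 to 40 bases before its start, Utf1 held 2, and Dnmt3b held 3 counting both strands. Lin28a held the SOX letters on the opposite strand, 96 to 91 bases before its start, and the Lin28b stretch held none of the motifs. CpG dinucleotides in the full 300-base window numbered 30 for Dnmt3b, 17 for Utf1, 11 for Pou5f1, 10 for Lin28a, 8 for Lin28b and 4 for Nanog, beside a median of 7 over all windows. These matches describe letters in the reference sequence, and binding or methylation was not measured.

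Pou5f1, the gene of the POU-domain factor Oct4, was measured by 1 probe set (1417945_at). Its signals were 11.2, 20.7 and 28.8 in wild-type embryos 1, 2 and 3, and 22.04, 20.5 and 21.2 in heterozygous embryos 1, 2 and 3. The wild types spanned the whole range and the 3 heterozygotes lay close together inside it. Wild-type embryo 1 was the only array on which Pou5f1 fell below the highest bacterial control, which was itself highest on that array, at 13.5. The log2 difference, heterozygote minus wild type, was 0.15 (SE 0.37), and its 95% interval ran from 0.628-fold to 1.96-fold (limma adjusted p = 0.954). An interval this wide does not show that Pou5f1 was the same in both genotypes. The direction rested on wild-type embryo 1: without it the difference was -0.19.

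Nanog, the homeodomain factor of the naive state and of germ cells, was likewise measured by 1 probe set (1429388_at), which was too dim to be tested. Its signals were 8.79, 4.81 and 0.522 in wild types and 9.04, 3.91 and 1.16 in heterozygotes. None of the 6 values exceeded the bacterial controls of its array, so Nanog transcript was not detectable above background by this measure. The highest value was 17.3 times the lowest, and the genotypes overlapped (log2 difference 0.05, exact permutation p = 0.9, two-sided, and 0.9 adjusted over the 4 dim member probe sets; 0.1 is the smallest p that 3 against 3 allows). Values at this level have no order. In whole-embryo RNA, fewer expressing cells and less RNA per cell cannot be told apart, for Nanog or for any other member.

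Dppa3, also called Stella, is a marker of primordial germ cells and protects methylation in the zygote. Its probe set (1424295_at) gave 21.1, 21.4 and 24.5 in wild types and 18.3, 26.9 and 25.98 in heterozygotes. All values exceeded the bacterial controls, and heterozygous embryos held both the lowest and the highest. The log2 difference was 0.07 (SE 0.29, 95% interval 0.670-fold to 1.64-fold, limma adjusted p = 0.975). The spread between embryos of a genotype, 0.215 on the log2 scale, was close to the median of all tested probe sets, 0.222.

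Utf1, a chromatin-associated factor of embryonic stem cells and a known target of Oct4 and Sox2, was covered by 3 probe sets. The brightest (1416899_at) gave 24.5, 21.3 and 11.4 in wild types and 13.5, 12.8 and 22.4 in heterozygotes. High and low embryos occurred in both genotypes: wild-type embryos 1 and 2 and heterozygous embryo 3 were high, the other 3 low. In wild-type embryo 3 the value barely exceeded the highest bacterial control of its array, at 11.39 against 11.36. The log2 difference was -0.19 (SE 0.40, 95% interval 0.473-fold to 1.63-fold, limma adjusted p = 0.945). The other probe sets were below the filter. On 1443786_at all 6 values lay between 0.796 and 1.94, under the controls. On 1458333_x_at they lay between 1.37 and 3.60 in 5 embryos and at 13.1 in heterozygous embryo 2, the single value of that probe set above the controls. Values of these dim probe sets have no order.

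Lin28a encodes an RNA-binding protein that blocks maturation of the let-7 microRNAs and so keeps their targets on. The brighter of its probe sets (1437752_at) gave 2557, 2445 and 2685 in wild types and 2694, 2522 and 2496 in heterozygotes. These were the steadiest values of all members, with the highest embryo 1.10 times the lowest and a spread within genotypes of 0.06 on the log2 scale. The log2 difference was 0.00 (SE 0.06), and the 95% interval of 0.909-fold to 1.11-fold was the narrowest of the 9 tested member probe sets (limma adjusted p = 0.993). The second probe set (1421749_at) was dimmer and less even, at 431, 293 and 310 in wild types and 284, 215 and 331 in heterozygotes. Its log2 difference was -0.32 (SE 0.18, 95% interval 0.604-fold to 1.07-fold, limma adjusted p = 0.828), the smallest p among the members, and it did not pass. The 2 probe sets disagreed in both size and spread, and wild-type embryo 1, highest on the dimmer one, was in the middle on the brighter one.

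Lin28b, the paralogue, which blocks let-7 as well, was measured by 1 dim probe set (1430803_at). Its signals were 11.5, 8.5 and 11.4 in wild types and 9.53, 16.1 and 11.6 in heterozygotes. They exceeded the bacterial controls on 3 of 6 arrays, 1 of them wild type and 2 heterozygous. The controls were higher in wild types, and the 11.5 of wild-type embryo 1 missed a bar of 13.5, so this count does not compare the genotypes. The log2 difference was 0.19 (exact permutation p = 0.4, two-sided, and 0.8 adjusted over the 4 dim member probe sets), and the genotypes overlapped.

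The microRNAs that LIN28 proteins hold back share 1 seed. Of 1679 mature mouse microRNA names in the RefSeq table (GRCm38.p6), 11 carry it at bases 2 to 8. Of these, 3 are shown, 5′ to 3′, with the seed in capitals. The genes described next were listed by name, and their transcripts were not searched for seed matches. The microRNAs themselves were not analysed here.
mmu-let-7a-5p: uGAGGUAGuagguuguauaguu
mmu-let-7g-5p: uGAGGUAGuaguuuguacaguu
mmu-miR-98-5p: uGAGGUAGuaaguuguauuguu

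Genes around LIN28 and let-7 were detected in every embryo and none passed the test between genotypes. All 17 measured members of this list were tested and lay above the bacterial controls on all 6 arrays. None was called in either direction, 11 differences were positive and 6 negative, and the median log2 difference was 0.05, beside 0.00 over all tested probe sets. Hmga2, a chromatin protein and a classical let-7 target, was at 4026, 4627 and 4419 in wild types and 4712, 4976 and 4230 in heterozygotes. Trim71, a let-7 target that represses mRNAs, was at 803, 1010 and 1152 against 1103, 1248 and 950. In both, which are named after their values were seen, heterozygous embryo 2 was highest and wild-type embryo 1 lowest, and the genotypes overlapped. Dgcr8, a subunit of the microRNA processor (log2 -0.24, SE 0.11), and Tut7, a uridylyl transferase that acts on let-7 precursors (0.19, SE 0.10), had the smallest p and did not pass (limma adjusted p = 0.793 and 0.824). Groups did not overlap for 3 of the 17 genes (17.6%), against 12.2% of all tested probe sets.

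Sall4 encodes a zinc finger factor that works with the NuRD repressor complex and is mutated in limb and eye malformation. Its brighter probe set (1424152_at) gave 1622, 1976 and 1925 in wild types and 1956, 2066 and 1644 in heterozygotes. Each genotype had 1 embryo near the bottom of the range, wild-type embryo 1 and heterozygous embryo 3, and the others lay together. The log2 difference was 0.04 (SE 0.10, 95% interval 0.873-fold to 1.20-fold, limma adjusted p = 0.962). On the dimmer probe set (1424153_s_at) the signals were 266, 219 and 223 in wild types and 256, 191 and 181 in heterozygotes. That difference was -0.18 (SE 0.15, 95% interval 0.696-fold to 1.12-fold, limma adjusted p = 0.868). Wild-type embryo 1 was lowest on the first probe set and highest on the second, so the probe sets did not rank the embryos alike.

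Of the other spalt-like genes and the NuRD subunits, 14 of 14 were tested and none was called. The median log2 difference was 0.01, with 8 positive and 6 negative. Sall2, a spalt-like paralogue (log2 -0.30, SE 0.14), and Mta3, a NuRD subunit (0.39, SE 0.20), had the smallest p and limma adjusted p of 0.793 and 0.812. Sall1, expressed with Sall4 in many embryonic tissues, was at 581, 604 and 637 in wild types and 631, 682 and 562 in heterozygotes, with overlapping groups; it is named after its values were seen.

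Dnmt3b, a de novo DNA methyltransferase that is high in the epiblast, was measured by a pair of probe sets. The brighter (1449052_a_at) gave 1277, 1241 and 1330 in wild types and 1630, 1111 and 1274 in heterozygotes. The wild types were close together, while heterozygous embryos 1 and 2 were the highest and lowest of all. The log2 difference was 0.04 (SE 0.12, 95% interval 0.852-fold to 1.25-fold, limma adjusted p = 0.960). The dimmer (1418351_a_at) gave 584, 619 and 856 in wild types and 806, 649 and 479 in heterozygotes. Wild-type embryo 3 and heterozygous embryo 1 were high and the other 4 lower. That difference was -0.10 (SE 0.19, 95% interval 0.693-fold to 1.26-fold, limma adjusted p = 0.940), and the spread within genotypes was 0.34 on the log2 scale, above the 0.222 that was the median of all tested probe sets. The sign turned to 0.07 without wild-type embryo 3 and to 0.10 without heterozygous embryo 3.

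Other genes of DNA methylation and its removal ranged from dim to bright, and none passed. Of 14 on the array 11 were tested, and the median log2 difference was -0.04 with 4 positive and 7 negative. The summed signal of the 11 was 10897 to 11107 in wild types and 10197 to 10763 in heterozygotes, without overlap, and no test was run on the sums. A sum is led by its brightest genes, and how often sums of other genes separate the genotypes was not counted. The brightest here was Trim28, with means of 4360 in wild types and 4226 in heterozygotes and overlapping groups, named after its values were seen. Such sums overlapped between genotypes for the LIN28 and let-7 list and for the spalt-like and NuRD list. Gene by gene, groups were apart for 1 of the 11 (9.09%), against 12.2% of all tested probe sets. Uhrf1, which brings the maintenance enzyme to replicated DNA, was at 1554, 1387 and 1607 in wild types and 1191, 1385 and 1179 in heterozygotes. The genotypes did not overlap, although the lowest wild type and the highest heterozygote lay within rounding of each other, and Uhrf1 did not pass (log2 -0.28, SE 0.09, limma adjusted p = 0.700). The maintenance methyltransferase gene Dnmt1 differed by -0.13 (SE 0.09, adjusted p = 0.848). The partner of the germline and early epiblast enzymes, Dnmt3l, was too dim to be tested, at 2.33 to 10.5, and stayed under the controls on all 6 arrays; it was picked out after its values were seen.

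**Figure D2:**
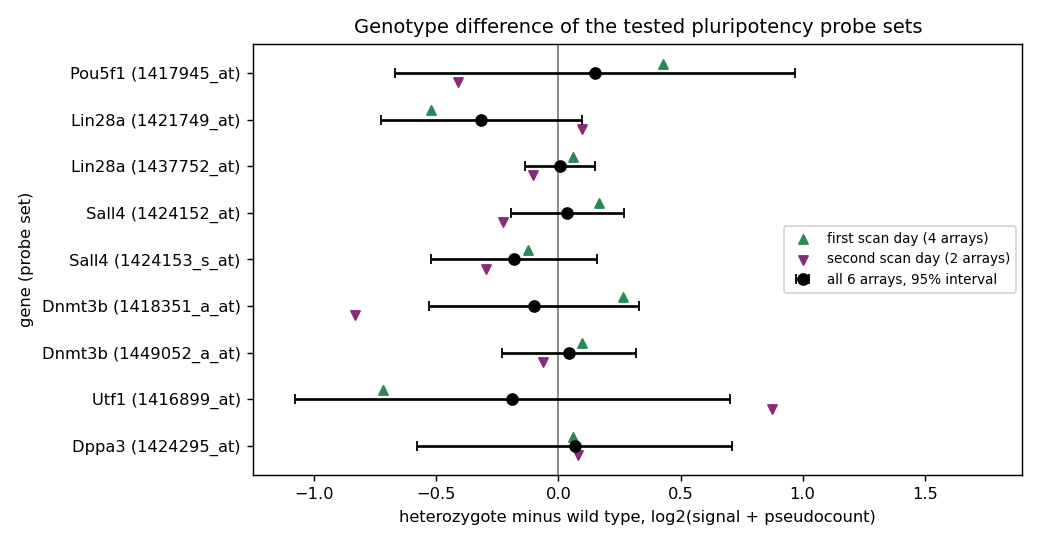
Log2 difference (heterozygote minus wild type) of the 9 tested member probe sets: black points with 95% intervals from limma for all 6 arrays, upward triangles for the first scan day (4 arrays) and downward triangles for the second (2 arrays). Every interval spans 0, and the narrowest is that of the brighter Lin28a probe set, 0.909-fold to 1.11-fold.

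The 9 tested probe sets of 6 genes gave 5 positive and 4 negative differences. With 1 probe set per gene, the median over the 6 genes was 0.04, beside 0.00 over all tested probe sets. The median of the members was -0.05 when all tested probe sets of each gene were averaged. Adjusted p ranged from 0.828 to 0.993 (limma), and 0 of the 9 separated the genotypes, against 12.2% of all tested probe sets. The first scan day held replicates 1 and 2 of both genotypes and the second held replicate 3 of both. The sign differed between days for 7 of the 9. For the dimmer Dnmt3b probe set the difference was 0.27 on the first day and -0.83 on the second, and for Utf1 it was -0.72 and 0.87.

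Other genes of the pluripotency network were also dim or mixed, and none passed. Of 27 on the array 21 were tested, of which 8 lay above 0 and 13 below, around a median of -0.10. Naive-state genes lay on both sides of the filter. Zfp42, known as Rex1, ranged from 2.95 to 17.4 and Nr0b1 from 0.73 to 3.37, among the 6 too dim to be tested. Esrrb, at 26.1 to 63.0, and Tfcp2l1, at 11.4 to 59.7, exceeded the controls on all 6 arrays, as did Klf2, Klf4 and Tbx3. These 7 are named after their values were seen. The 2 genes with the smallest p were Otx2 and Sox2, which are also factors of the neural plate. Otx2 was at 378, 301 and 417 in wild types and 241, 224 and 291 in heterozygotes (log2 -0.53, SE 0.15, limma adjusted p = 0.649). Sox2, the partner of Oct4, was at 939, 934 and 974 against 802, 732 and 910 (log2 -0.23, SE 0.09, adjusted p = 0.781). Both were lower in all 3 heterozygotes than in all 3 wild types. Klf5, a factor of the blastocyst, was next and lay higher in all 3 heterozygotes (log2 0.51, limma adjusted p = 0.781); it is named after its values were seen. Groups were apart for 3 of the 21 genes (14.3%), against 12.2% of all tested probe sets.

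Genes known to shut Pou5f1 down, which are nuclear receptors, chromatin factors and the homeobox gene Cdx2, were mostly detected, and none passed. All 14 were on the array, 13 were tested and lay above the controls on all 6 arrays, none was called, and the median log2 difference was -0.10 with 5 positive and 8 negative. Rara, a retinoic acid receptor gene, was the exception, too dim to be tested at 1.505 to 18.7; it is named after its values were seen. The summed signal of the 13 was 6246 to 6495 in wild types and 5739 to 5835 in heterozygotes, without overlap, and no test was run on the sums. This sum too is led by bright genes and does not show a fall across the list. Nr6a1 had means of 1286 in wild types and 1127 in heterozygotes, and Nr2f1 of 748 and 566, each with overlapping groups. For the pluripotency network the sums overlapped, at 3960 to 4614 in wild types and 3970 to 4086 in heterozygotes. Groups were apart for 3 of the 13 (23.1%), against 12.2% of all tested probe sets. Nr2f6, an orphan receptor of the COUP family, was at 522, 573 and 507 in wild types and 369, 392 and 466 in heterozygotes, without overlap (log2 -0.39, SE 0.11, limma adjusted p = 0.649). Its relative Nr2f1 differed by -0.43 (SE 0.22, adjusted p = 0.810) with overlapping groups. Nr6a1, the germ cell nuclear factor that represses Pou5f1 at gastrulation, gave 1167, 1205 and 1487 in wild types and 1297, 1105 and 980 in heterozygotes; it is named after its values were seen. The genotypes overlapped.

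**Figure D3:**
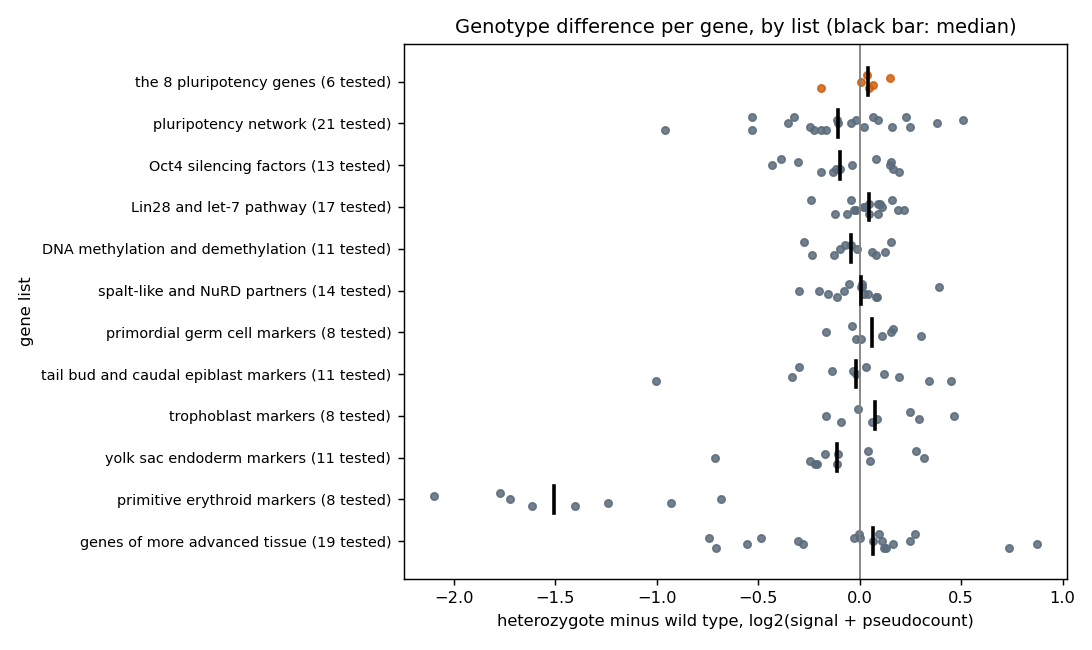
Log2 difference between genotypes (heterozygote minus wild type) of each tested gene, 1 probe set per gene, in the 8 pluripotency genes (6 tested) and the 11 other lists, with black bars for medians. The pluripotency genes span -0.19 to 0.15 around a median of 0.04, whereas the primitive erythroid markers all lie below 0 with a median of -1.51.

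Markers of the cells that could carry late pluripotency transcripts did not differ between genotypes by the test. Of 11 primordial germ cell markers on the array 8 were tested, none was called, and the summed signal of the tested ones was 2458 to 2648 in wild types and 2438 to 3311 in heterozygotes. Some of those most restricted to germ cells were too dim to be tested: Prdm14 was at 3.65 to 14.8, Ddx4 at 5.79 to 16.5 and Dazl at 1.97 to 15.5. Dnd1, another germ cell gene, was tested, at 18.2 to 28.7, and lay above the controls on all 6 arrays. All of these were chosen after their values were seen. The tested markers with the smallest p, Sox17 (log2 0.30, SE 0.14) and Ifitm3 (0.16, SE 0.12), are also expressed in endoderm and mesoderm (limma adjusted p = 0.794 and 0.862). Of 11 markers of the tail bud and caudal epiblast, where Oct4 is known to linger, 11 were tested and none was called, with a median of -0.02 and sums of 2324 to 3234 against 2287 to 3062. Cdx1, a caudal homeobox gene, had the smallest p (log2 -1.002, SE 0.47, adjusted p = 0.799), which was -0.21 over the arrays scanned first and -2.59 over the later pair, where heterozygous embryo 3 was at 18.9. It was followed by Cdx2 (0.19, SE 0.14, adjusted p = 0.853).

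Markers of yolk sac endoderm varied widely between embryos, within both genotypes, and those of trophoblast less. The summed signal of the 11 tested yolk sac endoderm markers was 2693, 11829 and 10900 in wild types and 18527, 1650 and 10896 in heterozygotes. Wild-type embryo 1 and heterozygous embryo 2 were thus low, and heterozygous embryo 1 was high. None of these markers was called, and their smallest p belonged to Rhox5 (log2 0.28, SE 0.58) and Apoa1 (-0.71, SE 1.74), with limma adjusted p of 0.945 and 0.953. Of 10 trophoblast markers 8 were tested and none was called, with sums of 5159 to 5711 in wild types and 4926 to 6744 in heterozygotes. Plac1 (0.29, SE 0.15) and Esx1 (0.47, SE 0.38) had the smallest p (adjusted p = 0.810 and 0.863), and the placental marker Tpbpa lay at 1.15 to 11.9, under the controls on every array; it is named after its values were seen.

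The summed signal of the 8 tested primitive erythroid markers was 5876 to 13866 in wild types and 7482 and 11356 in heterozygous embryos 2 and 3, but 314 in heterozygous embryo 1. None was called; Alas2 (-1.40, SE 0.61) and Klf1 (-0.93, SE 0.41) had the smallest p (limma adjusted p = 0.793 for both). The median of this list was -1.51 over all embryos, -0.415 without heterozygous embryo 1 and 0.55 on the second scan day alone. No marker on these lists was at exactly 0 on any array. The pluripotency genes had no common swing of this kind, although singly Pou5f1 and Utf1 varied by 2.56 and 2.15 times between embryos. The median deviation over the 6 tested genes from their own mean over all embryos was -0.07, -0.01 and 0.06 in wild-type embryos 1, 2 and 3 and 0.07, 0.00 and 0.02 in heterozygous embryos 1, 2 and 3, a range of 0.14 on the log2 scale, in which members that moved in opposite directions offset each other. The same range was 4.26 for the yolk sac markers and 4.10 for the erythroid markers. The order of the embryos by the pluripotency genes was not stable: heterozygous embryo 1 was highest here, wild-type embryo 3 with quantile normalization and heterozygous embryo 2, at 0.16, with equal array medians. The part of yolk sac or blood content in any member's value was not tested.

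**Figure D4:**
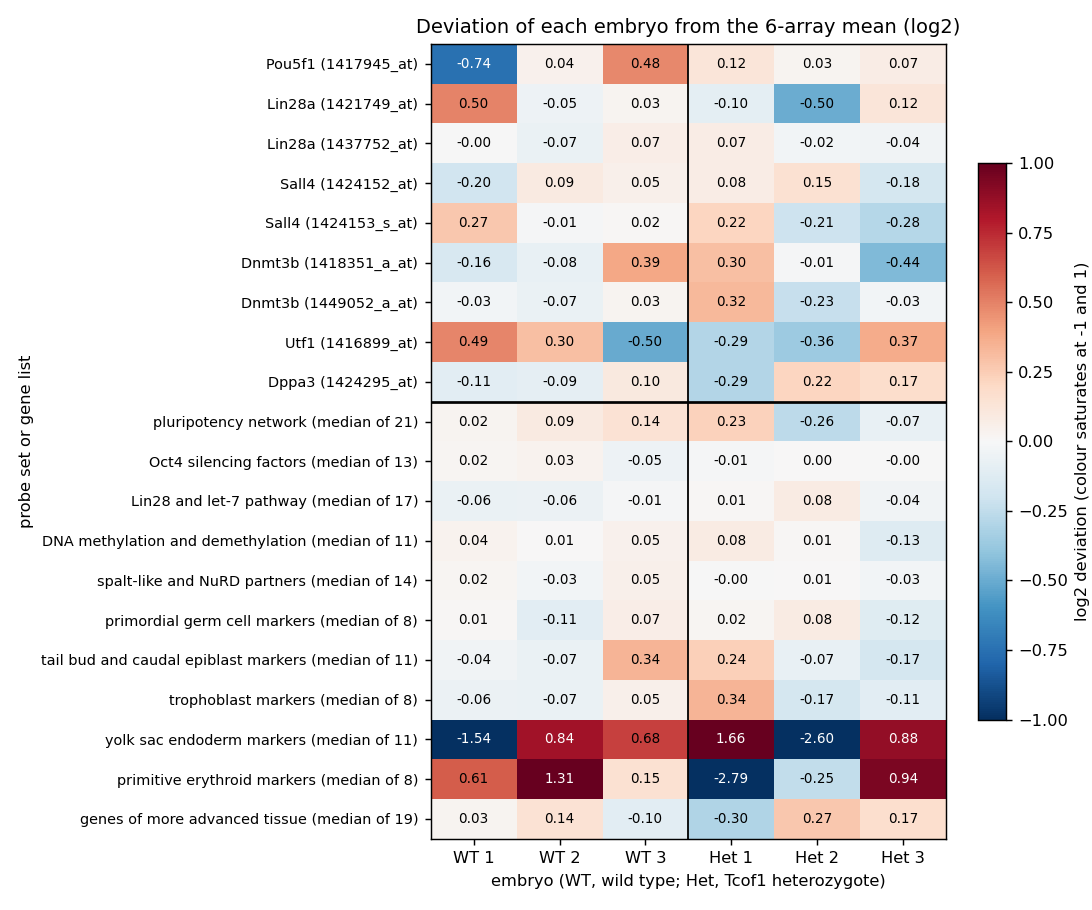
Log2 deviation of each embryo (columns) from the mean of the 6 arrays, for the 9 tested member probe sets (rows above the line) and the median of each other list (rows below it), with colours saturating at -1 and 1. Member probe sets stay within -0.74 and 0.50 and share no order of embryos, while the yolk sac and erythroid medians run from -2.79 to 1.66.

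Member by member, no embryo was high for all or low for all of the 6 tested genes. Wild-type embryo 3 lay above the 6-array mean for 5 of them and wild-type embryo 1 for 1. Heterozygous embryo 1 did so for 4, and the other embryos for 3 each. Of the 6 tested genes on their brightest probe sets, heterozygous embryos 1 and 2 were each highest for 2, wild-type embryos 1 and 3 each for 1, and wild-type embryo 2 and heterozygous embryo 3 for none. Pou5f1 and the dimmer Dnmt3b probe set were both highest in wild-type embryo 3 (0.48 and 0.39 above their means). Utf1 was lowest in that same embryo, at -0.50. Heterozygous embryo 1, which was lowest in erythroid markers, was high in both Dnmt3b probe sets (0.30 and 0.32) and low in Dppa3 (-0.29).

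The named genes whose centred log2 profile over the 6 arrays lay nearest to that of Pou5f1, out of 12856 compared, were Taf15, Amigo1, Zdhhc24, Mamld1 and Rab36. Their root mean square differences from the Pou5f1 profile were 0.11, 0.12, 0.13, 0.14 and 0.14, where Pou5f1 itself varied by 0.37 around its own mean. All 5 were lowest in wild-type embryo 1, and none of the members or of the pluripotency network genes was among them. With 6 arrays and this many genes such likeness is a description of these arrays.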

How the data were processed

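Total RNA of single embryos (100 ng) was amplified in 2 cycles, biotin-labelled, and 20 µg of cRNA was hybridised per array, per the labels' protocols. Each array has 1 deposited intensity for a probe set, on a linear scale. GCOS is the tool named for these values per the submitters' processing notes, with no version or algorithm given in the sources used here. Group and replicate came from the sample titles, scan day and fluidics module from the instrument records. No module held both genotypes, so module and genotype cannot be told apart.

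Of 45101 probe sets, 64 controls were left out. Values became log2(signal + 1.87), the constant being the 10th percentile, and fold changes are on this scale, which understates changes of dim genes. The 40% with the lowest mean log2 value (signal below about 13.2) were left out, and 27023 were fitted with limma 3.58.1 in R 4.3.3 (lmFit, eBayes with an intensity trend, genotype only, two-sided, Benjamini-Hochberg over all tested at 0.05). The script was tested on simulated data. Dim members had exact permutation tests. The deposited scaling was kept; 3 arrays per genotype limit the precision. Detection calls were not used here. The 3′ minus 5′ log2 signal of the Gapdh control probe sets was 0.85, 1.04 and 0.84 in wild types. In heterozygotes it was 0.81, 0.68 and 0.81, without overlap. Its part in the differences between genotypes or between probe sets of a gene was not tested.

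The 8 members and the 11 lists (170 genes, 156 matched by symbol, 135 tested, on the brightest probe set of each gene) were chosen with earlier results of these data known. The genes named are all members, of each list every gene that passed and the 2 with the smallest p, the 5 genes nearest to Pou5f1 in profile, and Tcof1; others are said to be named after their values were seen. Alternatives were pseudocounts of 1 and of the 25th percentile (7.03), equal array medians, quantile normalization, a filter at 60% or none, no intensity trend, replicate number or scan day as a block, each scan day alone, averaging a gene's probe sets, and each array left out in turn. Symbols came from the platform annotation, checked by gene identifier against the RefSeq table of GRCm38.p6, which changed 0. Figures were drawn with matplotlib 3.10.9.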

Additional observations from a re-analysis of the deposited data

How the results depend on the processing

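No member probe set and no gene of the other lists was called under any alternative run; the smallest limma adjusted p was 0.710 among members (without wild-type embryo 3) and 0.245 among lists (first scan day alone). Of 218 values of member probe sets under alternatives, 193 kept their direction and 25 did not, and the cause was not tested. The filter, trend and block alternatives cannot change the difference itself, only its p. Part of the 193 was therefore fixed in advance, and the count is no measure of stability. On the first scan day alone the difference became 0.27 for Dnmt3b 1418351_a_at and -0.0881 for Nanog. On the second it became -0.0616 for Dnmt3b 1449052_a_at, 0.10 for Lin28a 1421749_at, -0.10 for Lin28a 1437752_at, -0.41 for Pou5f1, -0.23 for Sall4 1424152_at, 0.87 for Utf1 1416899_at and -0.52 for Utf1 1458333_x_at. For Lin28a 1437752_at it was -0.0145 with quantile normalization and -0.0110 with equal array medians. Leaving out 1 array gave -0.28 to 0.10 for Dnmt3b 1418351_a_at, -0.11 to 0.17 for Dnmt3b 1449052_a_at, -0.0272 to 0.23 for Dppa3, -0.0292 to 0.0391 for Lin28a 1437752_at, -0.55 to 0.53 for Nanog, -0.19 to 0.43 for Pou5f1, -0.0527 to 0.13 for Sall4 1424152_at, -0.49 to 0.0081 for Utf1 1416899_at and -0.0492 to 0.94 for Utf1 1458333_x_at. The median over members was -0.0832 on the second scan day alone, -0.0509 with each gene's probe sets averaged, and -0.011 to 0.0703 with 1 array left out. The 22 calls over all probe sets became 0 without the intensity trend (smallest limma adjusted p = 0.0555), 14 with scan day as a block, 12 on the first scan day alone and 8 to 20 with 1 array left out, with 8 when wild-type embryo 1 was dropped, 11 for wild-type embryo 2 and also for 3, and 12 for heterozygous embryo 2. The second scan day alone holds 1 array per genotype, so no test was run there. They became 10 with the replicate block. Replicate numbers were not treated as pairs, since the deviations of same-numbered embryos correlated at -0.08, -0.11 and -0.02, and the block called no member.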

Other observations

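Genes of more advanced tissue, such as those of the beating heart tube, differentiating neurons and posterior Hox clusters, had their extremes in 2 heterozygous embryos for many, though not all, of the list. Of 19 tested, heterozygous embryo 1 was lowest for 11 and heterozygous embryo 2 was highest for 9. The share of all tested probe sets with an extreme in these embryos was not counted, so these counts have no background to be read against. The median deviation from the 6-array mean was 0.03, 0.14 and -0.10 in wild-type embryos 1, 2 and 3 and -0.30, 0.27 and 0.17 in heterozygous embryos 1, 2 and 3, and heterozygous embryos 1 and 2 remained the extremes under each pseudocount, filter and scaling alternative tried. Heterozygous embryos 1 and 2 were also the opposite extremes for yolk sac endoderm markers, with medians of 1.66 and -2.60. Heterozygous embryo 1 was lowest in erythroid markers, at -2.79. Stage and tissue content cannot be told apart in these values, and the part of either was not tested. Nppa, the gene of atrial natriuretic factor, was at 189, 203 and 103 in wild types and 62.2, 181 and 186 in heterozygotes. Hoxa9 was at 1215, 1292 and 1122 against 853, 1554 and 1333, and the ventricular myosin light chain gene Myl2 at 517, 504 and 332 against 222, 563 and 652. By genotype none of the 19 was called. Groups were apart for 4 of them (21.1%), 2 higher and 2 lower in heterozygotes, against 12.2% of all tested probe sets. An unadjusted limma p under 0.05 was reached by 4 (21.1%), against 6.22%. Tubb3, of the neuronal cytoskeleton (log2 -0.74, SE 0.23, limma adjusted p = 0.685), and Stmn2, also neuronal (-0.56, SE 0.18, adjusted p = 0.713), had the smallest p. Both lay lower in all 3 heterozygotes than in all 3 wild types, and lowest in heterozygous embryo 2. Elavl3, another neuronal gene, was highest in heterozygous embryo 1, at 55.1 against 12.1 in heterozygous embryo 2, and Hoxb9 was at 46.9 and 33.7 in those embryos. Nppa, Hoxa9, Myl2, Elavl3 and Hoxb9 were chosen after their values were seen.

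In the 21 tested genes of the wider pluripotency network, heterozygous embryo 1 was highest for 8 and lowest for 0, while heterozygous embryo 2 was highest for 1 and lowest for 8. Here too the share over all tested probe sets was not counted. L1td1, an RNA-binding protein gene of pluripotent cells, was at 40.6, 75.2 and 94.0 in wild types and 116, 55.0 and 52.0 in heterozygotes. Fgf4, a ligand of the early epiblast, was at 27.0, 27.6 and 39.9 against 58.1, 30.0 and 27.9, and Tdgf1, the Nodal co-receptor Cripto, at 55.7, 50.4 and 64.2 against 79.8, 40.02 and 44.4. The median deviation of the list was 0.23 in heterozygous embryo 1 and -0.26 in heterozygous embryo 2, and with equal array medians these were 0.16 and -0.10. Heterozygous embryo 3 was then lowest, at -0.18. The same embryos were the extremes for yolk sac endoderm markers, with medians of 1.66 and -2.60, and the part of yolk sac tissue in these network values was not tested. L1td1, Fgf4 and Tdgf1 were chosen after their values were seen.

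Wild-type embryo 3 and heterozygous embryo 1 had the highest medians of the 11 tail bud and caudal epiblast markers, 0.34 and 0.24. They were also the highest embryos on both Dnmt3b probe sets and on the brighter Lin28a probe set. For Pou5f1 they were the highest as well, at 28.8 and 22.04, although the other heterozygotes lay close by at 20.5 and 21.2. These ranks are at the deposited scaling and were picked out after the values were seen. With equal array medians, the median over the tested members was highest in heterozygous embryo 2, at 0.16. It was then 0.04 in wild-type embryo 3 and 0.0051 in heterozygous embryo 1. Ranks on single probe sets depend on the scaling in the same way. Neither embryo was highest on either Sall4 probe set or on the dimmer Lin28a probe set. Other members went the other way. Utf1 was lowest in wild-type embryo 3, at 11.4, and low in heterozygous embryo 1, at 13.5. Dppa3 was lowest in heterozygous embryo 1, at 18.3. Embryo age in somites was not available for comparison, and no order of the embryos by stage was tested.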
